A study of Mus musculus with 18 samples.

Results

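Egfr, Pdgfra and Pdgfrb encode receptor tyrosine kinases, and their transcripts were followed array by array through mouse embryonic fibroblasts (MEFs), mouse embryonic stem cells (mESCs) and 3 groups of induced pluripotent stem cells (iPSCs). They were read through probe sets, each a group of short probes meant for 1 or more transcripts of a gene. Every probe set with one of these symbols in the authors' list of probe sets lower than in MEFs was taken. Each gene had 1 such probe set, so that 3 of 45037 probe sets were described: 1435888_at for Egfr, 1421917_at for Pdgfra and 1436970_a_at for Pdgfrb. Symbols were given for only 931 probe sets, all of them in the authors' lists of lower (471) and higher (477) probe sets, and other probe sets of the 3 genes could not be named from these lists.

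Total RNA was read on Affymetrix expression arrays, 1 for each of 18 samples. The 3 MEF samples came from E13.5 embryos and were used within a few passages. The labels give the same strain for all groups, mESCs included: it combines an rtTA*M2 transactivator at the ROSA locus with an Oct4 (POU5f1tm2Jae) allele that carries GFP. The iPSC groups, of 4 clones each, were made from such MEFs with PiggyBac plasmids whose genes doxycycline switched on (1.5 µg/mL for 21 days). OSKM clones received Oct4, Sox2, Klf4 and c-Myc. OE + EpEX clones received Oct4 and EpCAM, an epithelial adhesion protein, and were treated with EpEX, the soluble extracellular part of EpCAM. KE + EpEX clones received Klf4 and EpCAM with the same EpEX treatment. The 3 mESC clones carry no label of such genes or of EpEX. iPSC colonies arose on a layer of mitotically inactivated fibroblasts, so that an iPSC sample may hold RNA of those feeder cells. For staining, the study plated ESCs on feeder cells too, so that an mESC sample may also hold such RNA. The 3 MEF samples are labelled as biological replicates, but the series design speaks of a single primary culture, and their spread may therefore be technical.

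Receptor tyrosine kinases cross the cell membrane once, bind a growth factor outside the cell, pair up and phosphorylate tyrosines on each other, which recruits the Ras-MAPK, PI3K-Akt, PLCγ and STAT3 pathways. Egfr binds EGF, TGFα and related ligands. Pdgfra and Pdgfrb bind the platelet-derived growth factors and are classical receptors of mesenchymal cells, including fibroblasts. Reprogramming takes fibroblasts through a mesenchymal-to-epithelial transition. The study reported, from an array of phosphorylated proteins, that EpEX induced phosphorylation of EGFR, PDGFR, HER2 and Axl in MEFs. It proposed that EpEX may start reprogramming through such receptors. The level of each receptor transcript in the starting cells and in the finished clones is therefore of interest, though it is no measure of phosphorylation.

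The upstream sequence of Egfr is shown as an example. Its transcript, like those of Pdgfra and Pdgfrb, was far lower in all 15 arrays of pluripotent cells than in MEFs. RefSeq (GRCm38.p6) places Egfr at chr11:16752203-16913907 on the plus strand, and the sequence below is the 250 bases directly before its start, chr11:16751953-16752202. Capitals mark matches, on either strand, to the GC box (GGGCGG) and the CACCC box (CACCC), letters read by the Sp and Klf families of factors.
Egfr upstream: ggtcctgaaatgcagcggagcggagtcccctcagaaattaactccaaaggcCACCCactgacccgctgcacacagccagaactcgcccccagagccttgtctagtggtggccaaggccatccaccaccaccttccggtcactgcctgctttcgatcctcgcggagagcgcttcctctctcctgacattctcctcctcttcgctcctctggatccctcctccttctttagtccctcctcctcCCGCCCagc
In the 250 bases Egfr held 1 GC box and 1 CACCC box. Of 32851 RefSeq windows of this length, 32.7% held a GC box and 52.0% a CACCC box. The window did not hold the letters of the CCAAT box (CCAAT, in 33.8% of windows), the TATA box (TATAAA, 12.4%), the octamer (ATTTGCAT, 1.6%) or the AP-1 site (TGANTCA, 6.7%), each read on both strands. G and C made up 60.8% of its bases, beside a median of 52.4% over all windows. A match of letters is a description and not a bound site.

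The authors deposited log2 values centred per probe set, with the median of its 18 values at 0. A value therefore gives the level of a probe set relative to the same probe set in other arrays. Levels of different genes cannot be set against each other, and whether a transcript was detected is unknown. Marker genes, too, could be read only where the authors' lists named them, so their direction between MEFs and the other arrays was fixed by those lists and is no check of the labels. The 9 named pluripotency markers (of 10 listed, among them Pou5f1, Nanog and Sox2) had a mean log2 value from −7.74 to −7.61 in the MEF arrays, from 0.83 to 0.95 in mESCs and from −0.07 to 0.43 in iPSCs. The 9 named fibroblast markers (of 16 listed, among them Col1a1, Col3a1 and Postn) had a mean from 4.84 to 6.60 in MEFs and from −0.96 to 1.72 in the other arrays. MEF sample 1 stood apart: over the list of lower probe sets its median difference from the mean of samples 2 and 3 was −1.84 on the log2 scale, against 0.05 over all probe sets.

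All 3 receptors were high in MEFs. The authors' list holds probe sets at least 10-fold below the MEF mean in all 15 other arrays, so this direction was fixed by how the members were found and was not tested. Egfr had log2 values of 3.38, 5.05 and 5.36 in MEF samples 1, 2 and 3. Pdgfra stood at 2.40, 5.57 and 5.78, and Pdgfrb at 5.12, 6.05 and 6.10. Sample 1 was the lowest for each receptor, with a difference from the mean of the other two of −1.82 for Egfr, −3.27 for Pdgfra and −0.95 for Pdgfrb. It was still above every array of pluripotent cells.

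**Figure D1:**
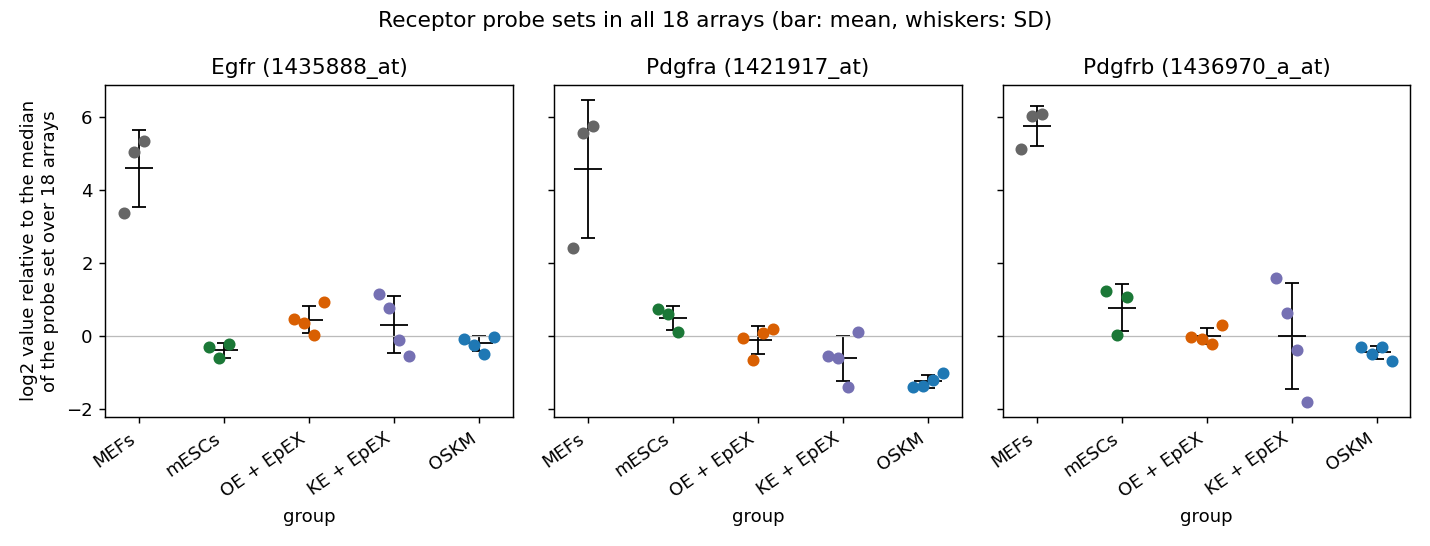
Log2 value of each receptor probe set, relative to its own median over the 18 arrays (vertical axis), in the 5 groups (horizontal axis); each point is 1 array, the bar is the group mean and the whiskers are the SD (n = 3 for MEFs and mESCs, 4 for each iPSC group). MEF arrays lie above all others for every receptor, with MEF sample 1 lowest, and Pdgfra falls from mESCs through OE + EpEX and KE + EpEX to OSKM.

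As a share of the MEF mean, taken on the log2 scale, Egfr stood at 3.15% in mESCs, at 3.58% in OSKM clones, at 5.12% in clones of KE + EpEX and at 5.59% in those of OE + EpEX. Pdgfra stood at 5.83% in mESCs, 3.84% in OE + EpEX clones, 2.72% in KE + EpEX clones and 1.75% in OSKM clones. In that order Pdgfrb stood at 3.16%, 1.84%, 1.86% and 1.35%. The array nearest to MEFs was KE + EpEX clone 1 for Egfr, 10.97-fold below the MEF mean, which is just past the limit of the list. It was mESC clone 1 for Pdgfra, 14.29-fold below, and again KE + EpEX clone 1 for Pdgfrb, 18.07-fold below. The farthest array was mESC clone 2 for Egfr (37.3-fold), OSKM clone 1 for Pdgfra (63.5-fold) and KE + EpEX clone 4 for Pdgfrb (189.7-fold). Against MEF sample 1 alone, 10 of 15 arrays were 10-fold lower for Egfr, 5 of 15 for Pdgfra and 15 of 15 for Pdgfrb. Quantile normalization gives all arrays 1 distribution, and it was applied to values already centred per probe set. By construction it thus narrows arrays with many values far from 0, such as MEFs, and stretches others. Its results are therefore no measure of how the drop depends on array scaling. After it the log2 difference from MEFs ranged from −0.73 (Egfr in OE + EpEX) to −4.57 (Pdgfra in OSKM), against −4.16 and −5.84 before. It stayed below 0 for the 3 receptors in all 4 groups. The same limit holds for every quantile-normalized value below. In such bulk samples, fewer cells that carry a transcript and less of it per cell cannot be told apart.

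Among the pluripotent groups, Pdgfra was the only receptor with differences that passed the main test given below. It was highest in mESCs, intermediate in OE + EpEX and KE + EpEX clones and lowest in OSKM clones. The mESC clones had log2 values of 0.75, 0.59 and 0.11, with a mean of 0.49 ± 0.33 (SD, n = 3). OE + EpEX clones 1 to 4 had −0.07, −0.67, 0.07 and 0.19, with a mean of −0.12 ± 0.38 (SD, n = 4). KE + EpEX clones had −0.55, −0.62, −1.40 and 0.11, with a mean of −0.61 ± 0.62 (SD, n = 4). OSKM clones lay close together at −1.40, −1.37, −1.21 and −1.03, with a mean of −1.25 ± 0.17 (SD, n = 4). Every OSKM clone was below every mESC and OE + EpEX clone, and KE + EpEX clone 3 was the only array of another group that lay among the OSKM clones. How many of all probe sets separate groups in this way was not counted.

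These differences were tested with limma on the 15 arrays of pluripotent cells, with 1 mean per group, p-values adjusted by the Benjamini-Hochberg method over all 45037 probe sets, and a call at an adjusted p under 0.05 with a difference of at least 2-fold. Pdgfra was 3.33-fold lower in OSKM clones than in mESCs, a log2 difference of −1.74 (SE 0.277, 95% interval −2.33 to −1.15, limma adjusted p = 0.00048). It was the 1 of 3 receptors called in this comparison, in which 3.73% of all probe sets were called. The call remained when any 1 of the 15 arrays was left out, with adjusted p between 7.71e-05 and 0.0047. With the MEF arrays in the same fit, the spread of Pdgfra among MEFs raised the SE to 0.576 and the adjusted p to 0.0674. After quantile normalization the log2 difference was −2.39 (adjusted p = 0.00034).

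Pdgfra was also 2.14-fold lower in KE + EpEX clones than in mESCs, with a log2 difference of −1.10 (SE 0.277, 95% interval −1.69 to −0.51, limma adjusted p = 0.012). Again 1 of 3 receptors was called, beside 3.89% of all probe sets. The groups only just did not overlap, the lowest mESC clone being at 0.114 and the highest KE + EpEX clone at 0.107. The call was lost without mESC clone 1 (−0.97, adjusted p = 0.066), and without KE + EpEX clone 3 the difference of −0.84 was under 2-fold. It was also lost with all 18 arrays (adjusted p = 0.297), with only the compared groups in the fit (0.0592), by the methods' t-test after adjustment (0.214) and after quantile normalization (−0.94, 0.0961).

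OE + EpEX clones did not differ from mESCs by this test in Pdgfra, with a log2 difference of −0.60 (95% interval −1.19 to −0.01, limma adjusted p = 0.172), and 0 of 3 receptors were called, beside 3.43% of all probe sets. At an unadjusted p under 0.05, 2 of the 3 receptors passed, Pdgfra and Egfr, as did 12245 of all 45037 probe sets.

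Between iPSC groups few probe sets differed. Pdgfra was 2.19-fold higher in OE + EpEX than in OSKM clones, with a log2 difference of 1.13 (SE 0.256, 95% interval 0.59 to 1.68, limma adjusted p = 0.0461). This made 1 of 3 receptors called, while 0.0977% of all probe sets (44) were called. The adjusted p lay close to the threshold, and leaving out 1 array ended the call in 13 of 15 cases, with adjusted p from 0.0102 to 0.128. Only without KE + EpEX clone 3 or without KE + EpEX clone 4 did it remain. With all 18 arrays in the fit the adjusted p was 0.436, with the trend and robust options of eBayes 0.0977, by the methods' t-test 0.0733 and with the replicate number as a block 0.0513. The call held with only the compared groups in the fit (0.0113) and after quantile normalization, which raised the log2 difference to 1.89 (0.00333).

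KE + EpEX and OSKM clones differed in Pdgfra by 0.64 (95% interval 0.09 to 1.18, limma adjusted p = 0.334), and 0 of 3 receptors were called, beside 0.00222% of all probe sets, a single one. After quantile normalization the difference was 1.45 with an adjusted p of 0.0258, which passed. OE + EpEX and KE + EpEX clones differed by 0.50 (95% interval −0.05 to 1.04, limma adjusted p = 0.627). In this last comparison 0 of 3 receptors and 0% of all probe sets were called by limma, although 3723 probe sets, none of them a receptor described here, had an unadjusted p under 0.05. In the order of Pdgfra levels, mESCs, OE + EpEX, KE + EpEX and OSKM, no pair of neighbours therefore passed the test, whereas 3 of the pairs farther apart did.

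**Figure D2:**
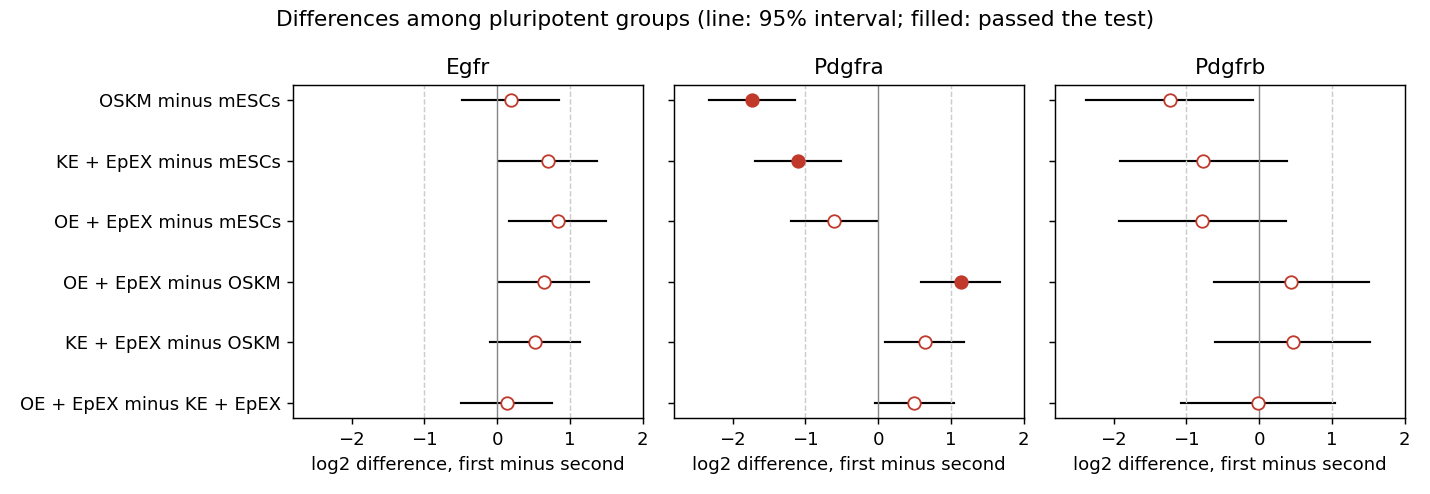
Log2 difference of each receptor between pairs of pluripotent groups, first group minus second (horizontal axis), for the 6 comparisons (vertical axis); circles are the limma estimates from 15 arrays, lines the 95% intervals, and dashed lines mark a 2-fold difference. Filled circles passed the test, which was the case for Pdgfra in OSKM and KE + EpEX against mESCs and in OE + EpEX against OSKM.

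Egfr followed another order. It was lowest in mESCs, at −0.32, −0.62 and −0.23 (mean −0.39 ± 0.20, SD, n = 3), and low in OSKM clones, at −0.08, −0.24, −0.49 and −0.02 (mean −0.21 ± 0.21, SD, n = 4). OE + EpEX clones had 0.45, 0.35, 0.02 and 0.92, with a mean of 0.44 ± 0.37 (SD, n = 4). KE + EpEX clones spread from 1.14 and 0.76 in clones 1 and 2 to −0.10 and −0.57 in clones 3 and 4, with a mean of 0.31 ± 0.78 (SD, n = 4). All 4 OE + EpEX clones lay above all mESC and OSKM clones, while the KE + EpEX clones overlapped every group. The share of all probe sets that separate these groups in this way was not counted, so the separation may be common.

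No difference in Egfr passed the test. OE + EpEX clones stood 0.83 above mESCs on the log2 scale (SE 0.315, 95% interval 0.16 to 1.50, limma adjusted p = 0.0969) and 0.64 above OSKM clones (95% interval 0.02 to 1.27, adjusted p = 0.284). KE + EpEX clones stood 0.70 above mESCs (95% interval 0.03 to 1.37, adjusted p = 0.16) and 0.52 above OSKM clones (−0.10 to 1.14, adjusted p = 0.524). In some alternatives the limma adjusted p against mESCs was under 0.05 while the difference stayed under 2-fold. For OE + EpEX it was 0.0265 with only the compared groups in the fit. It was 0.0451 without KE + EpEX clone 1 and 0.0353 without clone 4. For KE + EpEX it was 0.0161 without clone 4 (log2 difference 0.99). The intervals against mESCs reach past a 2-fold difference, which the 3 or 4 arrays per group can thus neither show nor put aside. Neither OSKM clones against mESCs (0.18, 95% interval −0.49 to 0.86, adjusted p = 0.786) nor OE + EpEX against KE + EpEX clones (0.13, −0.49 to 0.75, adjusted p = 0.931) reached an unadjusted p under 0.05.

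Pdgfrb varied widely among KE + EpEX and among mESC clones, and no difference between groups passed the test. The mESC clones had 1.22, 0.03 and 1.06, with a mean of 0.77 ± 0.65 (SD, n = 3). KE + EpEX clones ran from 1.58 and 0.64 in clones 1 and 2 to −0.39 and −1.81 in clones 3 and 4, with a mean of 0.005 ± 1.45 (SD, n = 4). OE + EpEX clones lay at −0.03, −0.09, −0.23 and 0.30 (mean −0.01 ± 0.22, SD, n = 4) and OSKM clones at −0.31, −0.49, −0.32 and −0.70 (mean −0.46 ± 0.18, SD, n = 4). The highest and the lowest of the 15 values were thus both KE + EpEX clones. As for Pdgfra, every OSKM clone was below every mESC and OE + EpEX clone. How many of all probe sets separate groups in this way was not counted. The SD of Pdgfrb among KE + EpEX clones exceeded that of 99.7% of all probe sets in these clones, and of 94.3% of the list of lower probe sets. Among mESC clones it exceeded 99.7% and 99.4%.

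Between OSKM clones and mESCs the log2 difference in Pdgfrb was −1.23 (95% interval −2.38 to −0.08, limma adjusted p = 0.147). This difference passed when KE + EpEX clone 4 was left out (adjusted p = 0.0252) and when only the compared groups entered the fit (0.0041), since the wide spread of KE + EpEX clones then weighed less or not at all in the SE. The differences from mESCs were −0.78 for OE + EpEX (−1.93 to 0.37, adjusted p = 0.388) and −0.77 for KE + EpEX clones (−1.92 to 0.38, adjusted p = 0.418). OE + EpEX and KE + EpEX clones differed by −0.02, with a 95% interval from −1.08 to 1.05, so that a 2-fold difference either way lies within the error.

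**Figure D3:**
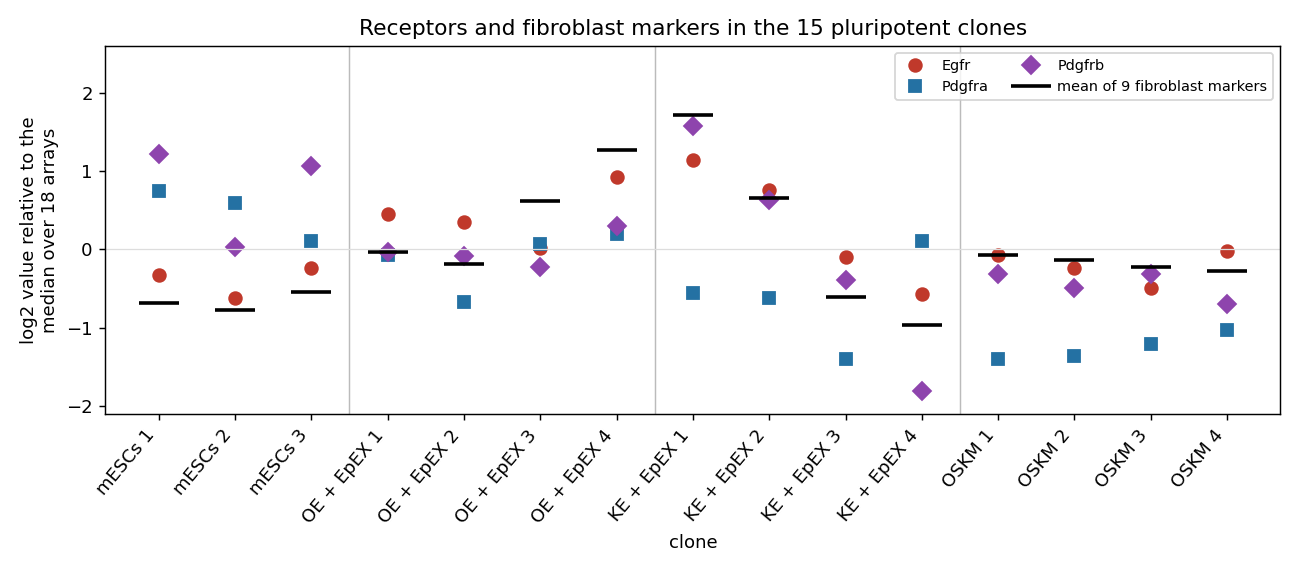
Log2 values, relative to the median over 18 arrays, of the 3 receptors and the mean of 9 fibroblast markers (vertical axis) in each of the 15 pluripotent clones (horizontal axis); each symbol is 1 array. Egfr and the marker mean are both high in KE + EpEX clones 1 and 2 and OE + EpEX clone 4 and low in KE + EpEX clones 3 and 4 and in mESCs, whereas Pdgfra is lowest in OSKM clones and KE + EpEX clone 3. OE + EpEX clone 3 departs from this, with a marker mean of 0.62 and the lowest Egfr value of its group (0.02).

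Fibroblast markers varied between the clones too, and Egfr varied with them and with the median of the list of lower probe sets. The mean log2 value of the 9 named markers was 1.72 and 0.66 in KE + EpEX clones 1 and 2 and −0.61 and −0.96 in clones 3 and 4. In OE + EpEX clones 1 to 4 it was −0.03, −0.19, 0.62 and 1.27. It ranged from −0.28 to −0.08 in OSKM and from −0.77 to −0.54 in mESC clones. KE + EpEX clone 1 was the highest of the 15 arrays at 11 of 13 marker probe sets and OE + EpEX clone 4 at the other 2, and these clones also had the highest and the second Egfr values. The values are relative and do not tell whether a marker was absent, and the part of fibroblast or feeder RNA in these results was not tested.

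Over the 15 arrays Pearson's r with the fibroblast marker mean was 0.882 for Egfr, 0.474 for Pdgfrb and −0.06 for Pdgfra. Over the 12 iPSC arrays alone it was 0.857, 0.875 and 0.344. With the median of the list of lower probe sets, receptors left out, r over 15 arrays was 0.884 for Egfr, 0.549 for Pdgfrb and 0.11 for Pdgfra. Over the 12 iPSC arrays it was 0.884, 0.825 and 0.44. That list holds the fibroblast markers too, and the likeness of Egfr was thus not particular to them. The points share the array processing, and clones of a group share their origin. For Pdgfra, the group with the lowest fibroblast markers, mESCs, was the group with the highest level, and the OSKM clones, with the lowest Pdgfra, had more of these markers than mESCs. With the mean of the 9 pluripotency markers, r over 15 arrays was 0.733 for Pdgfra, 0.45 for Pdgfrb and −0.385 for Egfr, and over the 12 iPSC arrays it was 0.541, 0.032 and 0.038. The part of either marker list in the differences above was not tested. Markers of primitive endoderm, mesoderm, trophoblast and pericytes were not named in the lists and could not be read.

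Once MEFs were left out, the 3 receptors did not all share 1 pattern. Among the iPSC clones, Egfr and Pdgfrb were both highest in KE + EpEX clone 1 (1.14 and 1.58). Both were lowest in KE + EpEX clone 4 (−0.57 and −1.81). Pearson's r over the 15 arrays was −0.047 between Egfr and Pdgfra, 0.496 between Egfr and Pdgfrb and 0.304 between Pdgfra and Pdgfrb. Of the 931 named probe sets, those most like Egfr over these arrays were Osmr, the oncostatin M receptor (r = 0.955), Plat, tissue plasminogen activator (0.948), and Sspn, sarcospan (0.947). Osmr ranged in KE + EpEX clones from −1.16 to 2.86 and in mESCs from −1.10 to −0.63. Those most like Pdgfra were Brca1 (0.869) and Mybl2 (0.828), both higher in pluripotent cells than in MEFs, and Amot (0.824), which was lower. Pdgfrb was most like Cdh1, E-cadherin (0.787), Mef2a (0.785) and Igfbp4 (0.778). These were the highest of many correlations and carry no test.

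Other genes of receptor tyrosine kinase signalling were read from a list of 108 ligands, receptors, co-receptors, adaptors, inhibitors and targets, of which only 6 genes with 9 probe sets carried a symbol in the authors' lists. Pdgfd, a ligand of Pdgfrb, was measured by 2 probe sets. Nrp1, a co-receptor for several growth factors, was measured by 3, and Lrp1, an endocytic receptor that binds Pdgfrb, by 1. Epha3 is an ephrin receptor, and Egr1 an immediate early gene switched on by MAPK signalling. These 5 genes were in the list of lower probe sets, and Kit, the receptor of stem cell factor, was in that of higher ones. Their direction against MEFs was fixed by those lists.

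**Figure D4:**
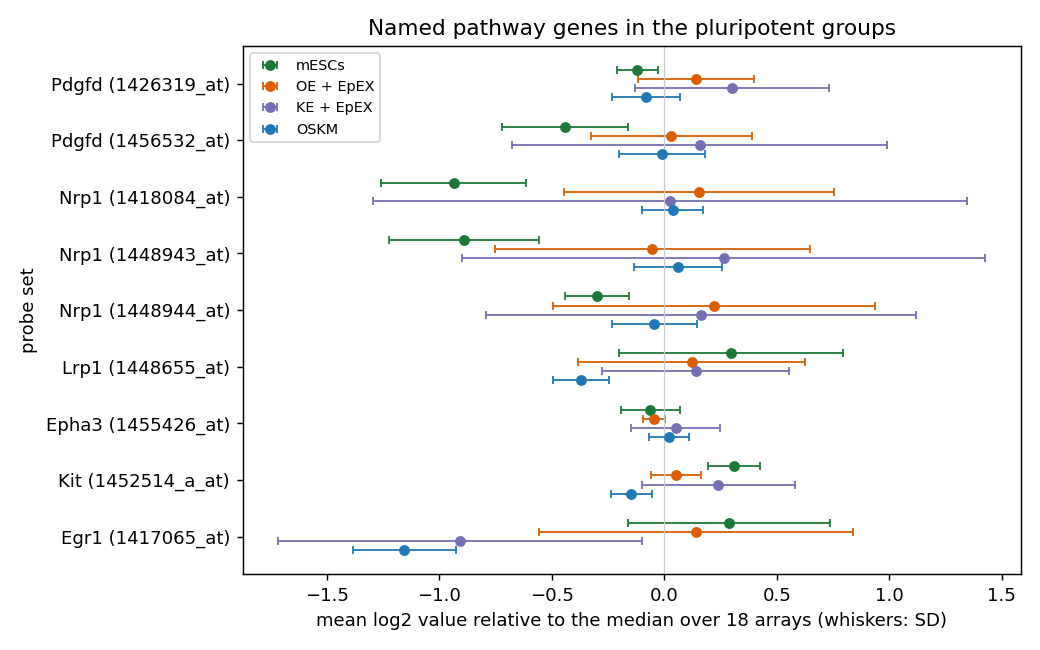
Mean log2 value, relative to the median over 18 arrays, of the 9 probe sets of 6 named pathway genes (vertical axis) in the 4 pluripotent groups; circles are group means and whiskers the SD (n = 3 for mESCs, 4 for each iPSC group). Egr1 is lowest in OSKM clones, and the 3 Nrp1 probe sets are lowest in mESCs and widely spread among KE + EpEX clones.

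Of these 9 probe sets, 1 was called lower and 0 higher in OSKM clones against mESCs, where 3.73% of all probe sets were called. In the other 5 comparisons, where 0% to 3.89% of all probe sets were called, 0 of the 9 were called. The one called was Egr1, with a mean of −1.16 ± 0.23 (SD, n = 4) in OSKM clones and 0.29 ± 0.45 (SD, n = 3) in mESCs, a log2 difference of −1.44 (SE 0.397, limma adjusted p = 0.0197). The Egr1 call was lost with all 18 arrays in the fit, without mESC clone 3 and without OSKM clone 3. In KE + EpEX clones Egr1 had a mean of −0.91 ± 0.81 (SD, n = 4), and its difference from mESCs of −1.20 had an adjusted p of 0.0517. For Kit the difference between OSKM clones and mESCs was −0.46 (adjusted p = 0.0403), which is under 2-fold and was not called.

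The 3 Nrp1 probe sets had means of −0.94, −0.89 and −0.30 in mESCs and spread widely in KE + EpEX clones, from −1.31 to 1.59 for 1418084_at. Their differences between KE + EpEX clones and mESCs were 0.96, 1.15 and 0.46, with adjusted p of 0.246, 0.125 and 0.553. The Pdgfd probe sets differed from mESCs by 0.42 and 0.60 in KE + EpEX clones (adjusted p = 0.167 and 0.272). Lrp1 had a mean of −0.37 ± 0.12 (SD, n = 4) in OSKM clones and 0.30 ± 0.50 (SD, n = 3) in mESCs (adjusted p = 0.117). The median difference of the 9 probe sets was 0.08 for OSKM, 0.42 for KE + EpEX and 0.26 for OE + EpEX clones against mESCs, beside medians of −0.02, −0.02 and −0.05 over all probe sets. Those of Nrp1 and Pdgfd are no separate genes, and all but that of Kit come from the list of lower probe sets. The median of that list averaged −0.146 in mESCs, −0.122 in OSKM, 0.035 in KE + EpEX and 0.079 in OE + EpEX arrays. Whether the 9 probe sets depart from that list was not tested.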

How the data were processed

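RNA of 18 samples was measured on 1 Affymetrix array each (3 MEFs, 3 mESCs and 4 clones of each iPSC group), and groups follow the sample labels. The labels name Trizol and biotin, the study's methods RNeasy and Cy3. The authors used GeneSpring GX for their analysis, and the submitters' processing notes name MAS5 and RMA without their role. The deposited log2 values had been centred per probe set, with each probe set's median at 0 to within 5.0e-07 and array medians from −0.031 to 0.070. Values so centred do not show how far a signal stood above background. The number of arrays limits the precision. The authors' lists gave the gene symbols and the members, and the list of lower probe sets served as a reference set. Their fold change columns were not used.

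After 64 control probe sets were left out, 45037 were fitted with limma 3.58.1 (R 4.3.3; lmFit, eBayes) on 15 arrays without MEFs, in 6 comparisons. P-values set a difference between group means against the spread between clones, pooled over the pluripotent groups and moderated by eBayes. The MEF comparison was described without a test. The step was tested on simulated arrays with independent noise, in which 200 probe sets had a true log2 change of 2. It recovered 97.5% to 99.5% of them with 1 to 3 false calls per comparison. Smaller differences, such as those called for Pdgfra and Egr1, were not simulated. Python 3.11.15 with numpy 2.4.6, pandas 2.3.3 and matplotlib 3.10.9 did the rest. The named genes were all members, all pathway and marker genes with a symbol, and the 3 most like probe sets per receptor. Members and lists were chosen with earlier results of these data known. Alternatives were a fit of the more variable probe sets only (centred values allow no filter on dim ones), quantile normalization, centring of arrays, the arrays in the fit, eBayes options, fold thresholds, the methods' t-test, a replicate block and leaving out each array. An upstream sequence of Pdgfra is not reported here.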

Additional observations from a re-analysis of the deposited data

How the results depend on the processing

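Pdgfra in OSKM clones against mESCs was called under all alternatives except the fit with all 18 arrays, in which 0 receptors were called in any comparison. In KE + EpEX clones against mESCs, 0 receptors were called also after quantile normalization, with only the compared groups in the fit and by the methods' t-test after adjustment. In OE + EpEX against OSKM clones, 0 were called also with the trend and robust options of eBayes, by the adjusted t-test and with the replicate number as a block (Pdgfra adjusted p = 0.0513). In OSKM clones against mESCs, 2 receptors were called with only the compared groups and by the unadjusted t-test, and in KE + EpEX against OSKM clones 1 was called after quantile normalization. With 1 array left out, receptors called ranged from 0 to 1 for KE + EpEX against mESCs, from 1 to 2 for OSKM against mESCs and from 0 to 1 for OE + EpEX against OSKM. Of the pathway probe sets, 0 to 2 were called for KE + EpEX against mESCs and 0 to 1 for OSKM against mESCs with 1 array left out. In OSKM against mESCs 0 were called with all 18 arrays, in OE + EpEX against mESCs 1 with only the compared groups, and in OE + EpEX against OSKM 1 after quantile normalization and 1 with only the compared groups. Signs turned for 3 differences that had not passed the test: Pdgfrb between OE + EpEX and KE + EpEX was 0.016 after quantile normalization, and with 1 array left out ranged from −0.62 to 0.51, Pdgfrb between KE + EpEX and OSKM from −0.066 to 1.065, and Egfr between OE + EpEX and KE + EpEX from −0.16 to 0.41. Of 162 receptor differences under other alternatives, 149 kept direction and call. The causes were not tested beyond what the fits' construction shows.

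Replicate numbers did not pair the samples: same-numbered arrays of different groups correlated in their deviations from the group means by −0.362 to 0.254 (21 pairs, 2 above 0.1). The replicate block changed no other call of a receptor. Quantile normalization was applied to centred values and is, as stated above, no measure of the effect of array scaling. It changed the counts over all probe sets from 1754 to 643 (KE + EpEX against mESCs), from 1547 to 545 (OE + EpEX), from 1678 to 1005 (OSKM), from 44 to 384 (OE + EpEX against OSKM) and from 1 to 237 (KE + EpEX against OSKM). The fit with all 18 arrays gave 20, and the block 18, for OE + EpEX against OSKM. Since the values are relative, low levels cannot be told from background.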
